A study of Mus musculus with 2 samples.

Results

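C1q macrophages are the cells of the mouse prostate tissues that carried RNA of the complement C1q genes together with a myeloid adaptor gene and no RNA of the epithelial gene Epcam. A cell was a member when at least 2 of C1qa, C1qb and C1qc had a deposited value of 1.5 or more (natural log of 1 plus the transcripts per 10000), Tyrobp or Fcer1g was above 0, and Epcam was at 0. The rule selected 196 of 15742 cells. The tissue came from mice of the genotype R26 mTmG/hAR : Osr1 Cre/+ on a mixed C57BL/6 and 129S1/SvImJ background, in which Osr1-Cre recombination switches on a transgene (hARtg) and membrane-bound green fluorescent protein (mGFP). There was 1 sample of prostatic intraepithelial neoplasia (PIN) from 6-month mice and 1 of prostatic adenocarcinoma (PCa) from 12-month mice, each with 1 library of dissociated cells. Both samples carried the transgene, and no tissue without it was among the samples analysed here. Osr1-Cre marks a lineage from development onwards, so that a cell can carry the recombined alleles without present expression of Osr1.

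The cell barcodes had 1 of 2 endings, called barcode set 1 (6332 cells) and barcode set 2 (9410 cells). Neither the labels nor the barcodes tie an ending to PIN or PCa, and no cell was assigned to a tissue here. The cell number that the study states for PIN equals that of the first of these sets, and its number for PCa is close to that of the other, but this was not used for grouping. Differences between sets cannot be told apart from differences between libraries. With 1 library each, there is no replicate check and no test, cells are not replicates, and every interval given covers counting error only. Between the sets, 67 barcodes were shared, 1.06% of set 1, and 3 members were among those cells. The median member had 10657 unique molecular identifiers (UMIs, single captured transcripts) in set 1 and 7425 in set 2, with medians of 2652 and 2117 genes. The median mitochondrial share was 2.42% and 4.22%, and in other leukocytes 3.23% and 4.71%.

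Macrophages are phagocytes that live in nearly every tissue, where they clear dead cells, digest the cargo in lysosomes and present peptides to T cells on MHC class II. C1q, the recognition molecule of the classical complement pathway, is assembled from the products of C1qa, C1qb and C1qc, and tissue macrophages are its main source. In the prostate and its tumours, macrophages are among the common stromal leukocytes, and the genes they use vary from antigen presentation and chemokines to lipid and lysosomal programmes.

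The 3 C1q genes lie side by side on chromosome 4 (C1qa chr4:136895916-136898844, C1qb chr4:136880126-136886200 and C1qc chr4:136889801-136892936, build GRCm38.p6, the assembly of mm10). The 200 bases before the RefSeq start are shown for C1qb (chr4:136886201-136886400, minus strand) and C1qc (chr4:136892915-136893114, minus strand), because these genes defined the cells. Capitals mark the core GAGGAA of the PU.1 motif, the myeloid lineage factor, or its reverse complement TTCCTC.
C1qb: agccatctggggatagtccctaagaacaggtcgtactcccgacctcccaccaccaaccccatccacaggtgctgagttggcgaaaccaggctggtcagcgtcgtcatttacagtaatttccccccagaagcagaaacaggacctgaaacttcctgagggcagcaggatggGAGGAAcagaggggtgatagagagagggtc
C1qc: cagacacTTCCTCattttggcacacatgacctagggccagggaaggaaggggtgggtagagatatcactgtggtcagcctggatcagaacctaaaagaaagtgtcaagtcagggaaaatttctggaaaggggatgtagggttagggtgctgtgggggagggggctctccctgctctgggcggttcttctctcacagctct
The annotated gene of C1qc reaches into its window, so the start used there is not the outermost annotated one. The letters stood at -30 in C1qb and at -193 in C1qc, counted from the start that the window ends at. On either strand they occurred in 19.0% of 32851 promoter windows of the same length, and such a match is a description of letters, not a binding site.

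The members were chosen by their values of C1qa, C1qb and C1qc, which are therefore a description, and few cells lay near the threshold. Among 414 cells with Tyrobp or Fcer1g and no Epcam, the second-highest C1q value had a median of 3.98 and a highest value of 5.19 inside the rule. The lowest values inside were 1.58, 1.67 and 1.67, and the highest outside were 1.48, 1.48 and 1.39. Only 10 cells outside had a second C1q gene above 0, and 186 of the members had all 3 genes at the level. A further 67 cells met the C1q level but had Epcam RNA (19 in set 1 and 48 in set 2) and were not members. Levels below are CPM, the UMIs of a gene per 1000000 UMIs summed over the cells of a group. C1qa stood at 3398 CPM in set 1 and 7434 CPM in set 2, C1qb at 3751 and 7365 CPM, and C1qc at 1648 and 4040 CPM. For a single member of set 1 the C1qa level ran from 1.44 through a median of 27.8 to 121 UMIs per 10000, and in set 2 from 1.73 through 60.8 to 206. The single-cell ranges of the sets overlapped widely.

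The label was checked against macrophage genes that the rule did not use, each set against other leukocytes, the cells with Ptprc RNA (the pan-leukocyte gene CD45) and no Epcam that were not members (687 in set 1 and 47 in set 2). Adgre1, which encodes F4/80, stood at 352 CPM in set 1 (95% Poisson interval 287 to 428) and 392 CPM in set 2 (360 to 427), against 0.562 and 23.6 CPM in other leukocytes. It was found in 23 of 27 members of set 1 and 142 of 169 of set 2. Csf1r, the receptor for the macrophage growth factor CSF1, stood at 528 and 496 CPM and was found in 24 and 156 members. Lyz2 (lysozyme, with a near copy in Lyz1 that can share its reads) stood at 3529 and 6470 CPM against 218 and 1634, and Ms4a7, a membrane protein gene of macrophages, at 782 and 1747 CPM against 5.05 and 66.8. Fcgr1, the high-affinity IgG receptor, stood at 123 and 197 CPM, and Cd68, a lysosomal membrane protein gene, at 483 and 1096. Not all macrophage genes were found. Cx3cr1, the fractalkine receptor, had a UMI in 1 member of set 1 and 51 of set 2 (3.52 and 66.6 CPM), and Mertk, a receptor for dying cells, had 0 UMIs in 27 members of set 1 (which allows up to 10.6 CPM) and 11.7 CPM in set 2. Ptprc itself was found in 70.4% of members of set 1 and 71.6% of set 2. The heat map of levels by cell group shows Adgre1, Ms4a7 and Trem2 bright in the C1q columns. They were dark in T cells, fibroblasts, endothelium and epithelium, where Apoe was also seen. Myeloid cells with MHC class II RNA but C1q below the level are drawn as well and were not compared.

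**Figure D1:**
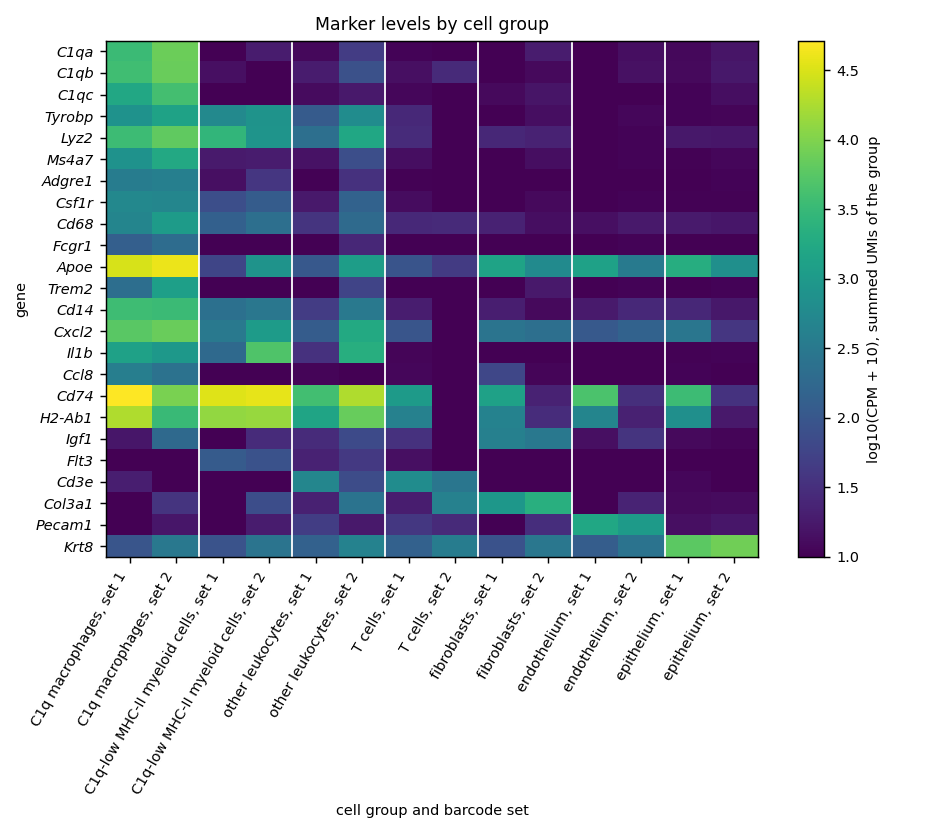
Level of 24 genes (rows) in the summed UMIs of 7 cell groups in barcode sets 1 and 2 (columns), coloured by log10(CPM + 10). Adgre1, Ms4a7 and Trem2 are high in both C1q columns, Apoe and Cxcl2 are seen in other groups too, Cd74 and H2-Ab1 are higher in set 1 than in set 2 in epithelium, fibroblasts and endothelium, and Flt3 is at 0 in C1q macrophages.

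Markers of other cell types were low in the members, with exceptions. Of 7 T cell markers in the table, 6 had a UMI in set 1 and 1 in set 2, and their sum was 63.4 and 8.05 CPM against 1962 and 310 CPM in other leukocytes. The list of natural killer and innate lymphocyte markers summed to 556 and 169 CPM against 3158 and 1233 CPM in other leukocytes, nearly all of it from Il7r (440 and 144 CPM), Rora (74.0 and 21.2 CPM) and Klrk1 (42.3 and 2.20 CPM). Ncr1, Klrb1c, Nkg7, Gzma, Gzmb and Prf1, genes of natural killer and cytotoxic cells on that list, were at 0 in the members of both sets. The dendritic cell list summed to 1120 CPM in set 1, most of it from Ccr7, and to 181 CPM in set 2. In other leukocytes it summed to 546 and 1037 CPM, so on this list the members of set 1 lay above them. Flt3, the dendritic cell growth factor receptor, was at 0 in the members of both sets. Fibroblast markers summed to 106 and 696 CPM, in set 1 without a UMI of Col1a1, Col1a2, Col3a1, Lum, Pdgfra or Mgp. Endothelial markers summed to 0 and 30 CPM and epithelial ones to 454 and 749 CPM, where other leukocytes held 794 and 931. Scrublet, which scores cells for likeness to simulated doublets, gave a score over 0.25 to 0 members of set 1 and 2 of set 2.

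C1q macrophages made up 0.426% of the cells of set 1 (27 of 6332, 95% Clopper-Pearson interval 0.281 to 0.620%) and 1.80% of set 2 (169 of 9410, 1.54 to 2.09%). Of the leukocytes they were 3.78% in set 1 (2.51 to 5.45%, of 714) and 78.2% in set 2 (72.1 to 83.6%, of 216). The intervals did not overlap on either base. Cells that met the C1q level but had Epcam RNA, 19 in set 1 and 48 in set 2, were not counted as members here. Other leukocytes had to carry Ptprc RNA and members did not. When Ptprc was required of members too, they were 72.0% of the leukocytes of set 2. The other leukocytes differed in make-up as well, since T cells (540 and 17 cells) were 78.6% of them in set 1 and 36.2% in set 2. Myeloid cells with MHC class II RNA but C1q below the level (20 and 14 cells) were 2.91% and 29.8%. How dissociation or capture shaped these shares was not tested.

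The members were next compared with the other leukocytes of their own set, to describe what else they expressed. Those leukocytes were 78.6% T cells in set 1. No comparison with the C1q-low myeloid cells (20 and 14 cells) was made. The ratios therefore do not separate macrophage traits from those of myeloid cells in general. Ratios are log2((CPM + 10)/(CPM + 10)), on which the change of genes with few UMIs is understated, and a gene was counted when it was more than 2-fold apart in the same direction in both sets. Of 5490 genes with a mean of at least 20 CPM, 268 (4.88%) were higher and 428 (7.80%) lower in C1q macrophages, and the median over all genes was -0.48 in set 1 and -0.14 in set 2. Apoe, the apolipoprotein that macrophages secrete for lipid transport, led the higher genes with log2 ratios of 8.19 and 5.15. It stood at 30927 CPM in set 1 and 40545 CPM in set 2 against 96.0 and 1135 CPM in other leukocytes. A single member held from 3.55 through a median of 214 to 962 Apoe UMIs per 10000 in set 1, and from 0 through 304 to 1097 in set 2. The members overlapped between sets over nearly this whole range.

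Of 18 macrophage identity genes used, 16 were higher in both sets, with medians of 4.01 and 2.51 against -0.48 and -0.14 over all genes. Ms4a7 had log2 ratios of 5.72 and 4.52, Adgre1 of 5.10 and 3.58, and Csf1r of 4.89 and 1.78. Cd14, the co-receptor for lipopolysaccharide, stood at 3564 and 3400 CPM against 35.4 and 302 CPM, with ratios of 6.30 and 3.45. Trem2, a lipid receptor of phagocytes, stood at 208 and 1222 CPM against 0.281 and 47.1 CPM. Among scavenger genes, 3 of 5 were higher, the mannose receptor Mrc1 (45.8 and 91.5 CPM), Stab1 (35.2 and 113 CPM) and Msr1 (52.8 and 49.8 CPM). The genes Timd4, Lyve1 and Folr2, which mark a long-lived tissue macrophage state, were sparse. Timd4 stood at 31.7 and 5.85 CPM, Lyve1 at 0 and 5.85, and Folr2 at 0 and 56.3.

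**Figure D2:**
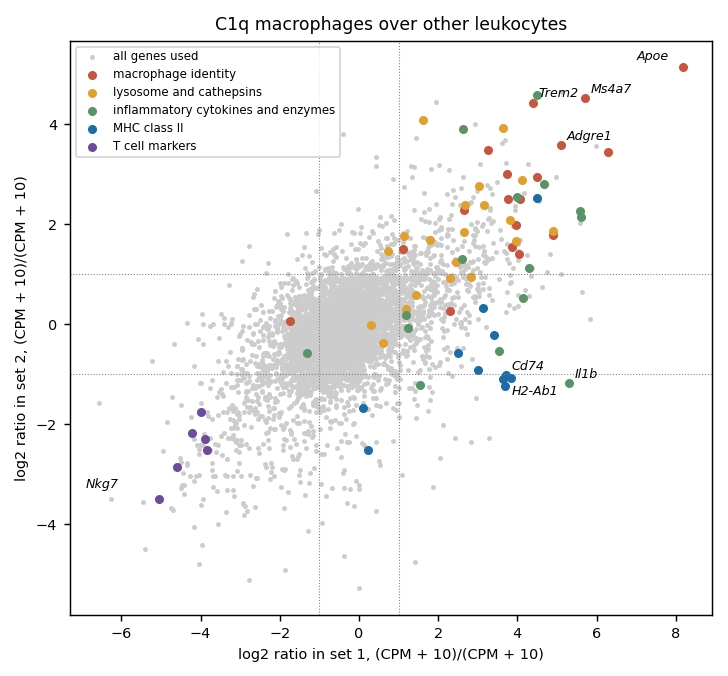
Each point is a gene, with its log2((CPM + 10)/(CPM + 10)) of C1q macrophages over other leukocytes in set 1 (x axis) and in set 2 (y axis), and dotted lines at 2-fold. Macrophage identity and lysosome genes lie mostly in the upper right, T cell markers in the lower left, and H2-Ab1, Cd74 and Il1b in the lower right, higher in set 1 and lower in set 2.

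Most genes of the lysosome and lipid handling lists were higher in C1q macrophages. Of 20 lysosome and cathepsin genes, 13 were higher in both sets and 0 lower, with medians of 2.56 and 1.73. Ctsb, a cysteine protease of the lysosome, stood at 3317 and 7384 CPM against 182 and 990 CPM in other leukocytes. Grn, which encodes progranulin, had ratios of 3.02 and 2.76. Of 17 genes of lipid handling and efferocytosis, the uptake of dead cells, 10 were higher, with medians of 2.16 and 1.44, among them Lpl, Cd36, Abca1 and Axl. Of 7 genes of iron and haem handling, 4 were higher, among them Hmox1, the enzyme that breaks down haem (1285 and 3253 CPM).

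Inflammatory mediators were common too. Of 15 genes of the inflammatory list 8 were higher in both sets, with medians of 4.0 and 1.13. Il1a stood at 549 and 379 CPM against 1.69 and 70.7 CPM, Tnf at 655 and 443 CPM against 16.3 and 55.0, and the anti-inflammatory Il10 at 306 and 229 CPM against 3.93 and 0 CPM. For Il10 in set 2 the log2 ratio was therefore at least 4.28, without added CPM and from a floor of 3 UMIs over the other leukocytes. Of 15 chemokine genes 8 were higher, among them Cxcl2, which attracts neutrophils, at 5744 and 7292 CPM against 110 and 1783 CPM. In a single member Cxcl2 ran from 0 through a median of 21.7 to 303 UMIs per 10000 in set 1 and from 0 through 37.1 to 662 in set 2, a wide spread in both sets. Ccl8, a ligand of monocyte receptors, was found in 8 and 39 members and stood at 377 and 239 CPM against 1.12 and 0 CPM. Gdf15, a stress-induced cytokine, stood at 1451 and 1558 CPM against 12.9 and 122 CPM. Nos2, the inducible nitric oxide synthase, had 0 UMIs in the members of both sets. How dissociation of the tissue shaped the levels of these mediators was not tested.

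The complement list was mixed. Of 8 genes, the receptors for the complement peptides, C3ar1 (306 and 280 CPM) and C5ar1 (236 and 348 CPM), were higher and the C1 inhibitor Serping1 was lower. Of 16 interferon-stimulated genes 5 were higher (Ifit2, Irf7, Rsad2, Bst2 and Cxcl10), with medians of 1.22 and 0.87. None of 6 cell cycle genes and none of 18 immediate early and heat shock genes was higher in both sets. The proliferation gene Mki67 stood at 17.6 and 24.9 CPM. Among the lower genes were Sh2d2a, Nkg7, Serpinb6b, Icos and Cd3g, genes of T cells and other lymphocytes, with ratios from -6.26 to -3.49. All 6 T cell markers used were lower, as T cells were among the other leukocytes.

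The sets were then compared within C1q macrophages, set 2 over set 1. Of 4763 genes with a mean of at least 20 CPM, 388 (8.15%) were more than 2-fold higher in set 2. Another 300 (6.30%) were more than 2-fold lower, around a median of -0.0030. A split given below calls members with much class II RNA MHC-II-high, 27 of 27 in set 1 and 64 of 169 in set 2. Among these members alone, 211 of the 388 genes were still more than 2-fold higher and 211 of the 300 still lower. Since a library can shift every cell, the same ratio was taken in the other leukocytes of the 2 sets. Of the genes higher in set 2, 97 (25%) were also more than 2-fold higher there, where 10.5% of all genes used were. Of those lower, 61 (20.3%) were lower there too, against 10.5% of all genes used. The other leukocytes differed in make-up between the sets, as given above, so their ratio cannot separate library from make-up. The ratios given next are of CPM without an added value, with the 95% conditional binomial interval.

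Genes of antigen presentation on MHC class II were lower in set 2 as a group. MHC class II is a pair of chains, such as H2-Aa with H2-Ab1. It is guided through the cell by the invariant chain Cd74 and loaded with peptide by H2-DM. H2-Ab1 (chr17:34263227-34269418), H2-Aa (chr17:34282744-34287823) and H2-Eb1 (chr17:34305867-34316674) are neighbours on chromosome 17. The 200 bases before the start are shown for H2-Aa (chr17:34287824-34288023, minus strand) and H2-Eb1 (chr17:34305667-34305866, plus strand), 2 of the genes that set the class II level of a cell below. Capitals mark ATTGG or its reverse complement CCAAT, the letters of the Y box of class II promoters.
H2-Aa: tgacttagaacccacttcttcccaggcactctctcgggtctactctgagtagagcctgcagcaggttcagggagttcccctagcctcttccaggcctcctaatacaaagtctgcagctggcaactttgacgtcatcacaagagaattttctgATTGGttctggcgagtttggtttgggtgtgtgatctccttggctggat
H2-Eb1: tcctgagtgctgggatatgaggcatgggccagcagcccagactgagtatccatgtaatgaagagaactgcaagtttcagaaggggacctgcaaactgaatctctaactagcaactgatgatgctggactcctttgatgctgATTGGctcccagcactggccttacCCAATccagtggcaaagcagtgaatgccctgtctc
ATTGG stood at -48 in H2-Aa, and at -59 and, reversed, -35 in H2-Eb1. On either strand it occurred in 29.4% of the promoter windows, so these letters are common before genes. The start of the X box (CCTAGCAAC), another class II promoter element, was also searched. These exact letters were found in neither window shown, and in 0.636% of all promoter windows. The H2-Eb1 window holds actagcaac, which differs in its first letter only. A search for exact letters cannot tell whether an X box with other letters is present in either window.

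H2-Ab1 stood at 18320 CPM in set 1 (17825 to 18824) and 3282 CPM in set 2 (3186 to 3379), a log2 ratio of -2.48 (-2.54 to -2.42). A single member held from 23.7 through a median of 212 to 321 UMIs per 10000 in set 1 and from 0 through 4.35 to 245 in set 2. Every member of set 1 had H2-Ab1 RNA, against 129 of 169 in set 2, and the upper part of set 2 overlapped set 1. Cd74 stood at 51426 and 9234 CPM (-2.48, -2.51 to -2.44), with single cells from 117 through 551 to 946 per 10000 in set 1 and from 0 through 21.5 to 822 in set 2. The ratio was -2.61 for H2-Aa (20661 and 3379 CPM) and -3.67 for H2-Eb1 (20035 and 1572 CPM). Ciita, the coactivator that switches class II genes on, stood at 102 and 3.66 CPM, with UMIs in 10 of 27 and 5 of 169 members. Of 11 genes of the class II presentation list, which also holds Ciita, Cd86 and Ctss, 10 were more than 2-fold lower in set 2, with a median of -1.84, and Ctss, the protease that trims the invariant chain, was the exception at 3395 and 4850 CPM.

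The direction in other leukocytes was the opposite, with a median of 1.71 over the same list, and H2-Ab1 stood there at 1475 CPM in set 1 and 7013 in set 2. Those groups hold different shares of T cells and of C1q-low myeloid cells, as given above. In cells that are not leukocytes H2-Ab1 was again higher in set 1, with 704 and 8.08 CPM in epithelium, 439 and 19.2 CPM in fibroblasts, and 473 and 11.6 CPM in endothelium. Cd74 gave 3489 and 24.7 CPM in epithelium. The part of RNA from outside the cell in the members' level was not tested. Against the other leukocytes of the same set, H2-Ab1 had a log2 ratio of 3.63 in set 1 and -1.09 in set 2.

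**Figure D3:**
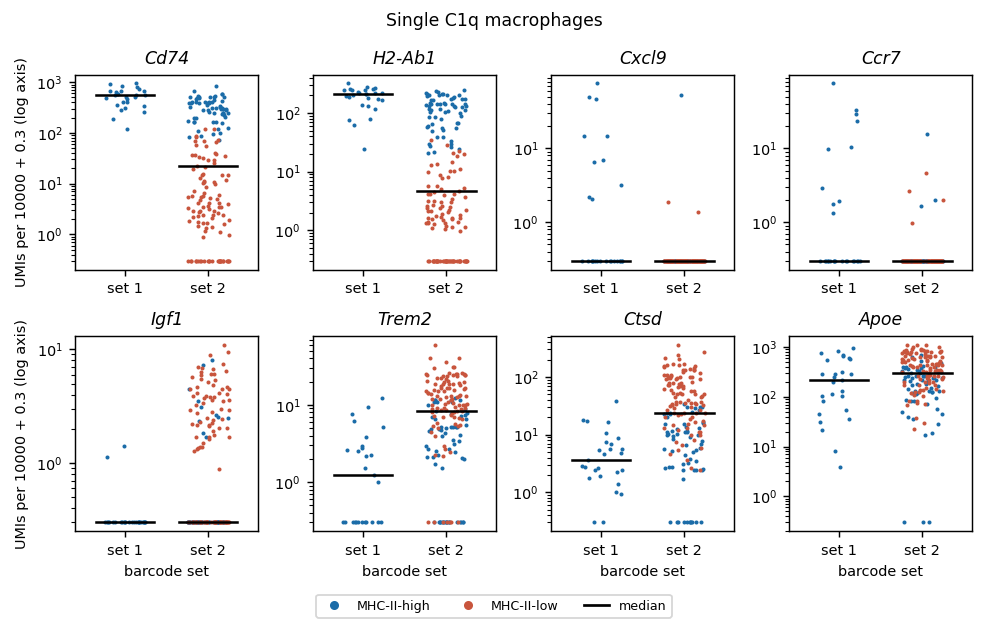
Each point is a C1q macrophage in barcode set 1 (27 cells) or set 2 (169 cells), with its UMIs per 10000 plus 0.3 on a log axis, coloured by MHC class II level, and a line at the median. Cd74 and H2-Ab1 form a single high band in set 1 and spread down to 0 in set 2, Cxcl9 and Ccr7 are carried by few cells, and Igf1, Trem2 and Ctsd are higher in set 2, mainly in MHC-II-low cells.

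Interferon-stimulated genes and part of the chemokines were also lower in set 2. Of 16 interferon-stimulated genes 9 were lower and 3 higher (Irf7, Bst2 and Zbp1), with a median of -1.21 where all genes had -0.0030. Cxcl9, the interferon-gamma-induced ligand of the T cell receptor CXCR3, stood at 940 CPM in set 1 (831 to 1060) and 29.3 CPM in set 2 (20.9 to 39.9). It came from 10 of 27 members in set 1 and 3 of 169 in set 2, where 1 cell held 37 of 40 UMIs. Cxcl10 stood at 1719 and 424 CPM (-2.02), and Ccl5 at 1722 and 180 CPM (-3.26), but 54.6% of the Ccl5 UMIs of set 1 were in 1 cell. Of 15 chemokine genes 5 were lower in set 2 (Ccl3, Ccl4, Ccl5, Cxcl9 and Cxcl10) and 5 higher (Ccl6, Ccl7, Ccl12, Cxcl1 and Cxcl14). Ccl12, a monocyte attractant, stood at 3.52 and 91.5 CPM, with 0 UMIs in the other leukocytes of both sets.

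Of 16 inflammatory genes 6 were lower in set 2 and 0 higher, with a median of -0.54. Ptgs2, the inducible cyclooxygenase, stood at 528 and 124 CPM (-2.09), and Il1rn, which encodes the interleukin-1 receptor antagonist, at 926 and 451 CPM. Il1b stood at 1314 and 941 CPM (-0.48), within 2-fold, while in other leukocytes it stood at 23.6 and 2140 CPM. Tnf, at 655 and 443 CPM, was also within 2-fold. Il6 was lower, but without the cell with the most UMIs on each side its log2 ratio on the scale with 10 CPM added was -0.79.

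Of 8 complement genes C3 and Cfb were lower in set 2 and C4b, which can share reads with its near copy C4a, was higher. C3, the central complement component, stood at 141 and 21.2 CPM, and in other leukocytes at 5.62 and 141.

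Ccr7, the chemokine receptor that guides antigen-presenting cells to lymph nodes, was among the lowest genes in set 2. It stood at 944 CPM in set 1 (834 to 1064) and 12.4 CPM in set 2 (7.25 to 19.9), with UMIs in 10 of 27 and 7 of 169 members. In set 1 the highest members held 75.5, 33.1, 29.1 and 23.5 Ccr7 UMIs per 10000, and the next 10.0. Those highest members held 7.91, 54.7, 130 and 35.9 Apoe UMIs per 10000, where the median of set 1 was 214. H2-M2, an MHC class Ib gene, stood at 588 and 0.732 CPM, in 13 members of set 1 and 1 of set 2. The decoy receptor gene Il1r2 (451 and 35.9 CPM) and the chemokine gene Ccl22 (137 and 5.85 CPM) were also lower. Ccr7 is also a dendritic cell marker, and 8 of the 12 markers of that list had a UMI in set 1 and 9 in set 2, with Flt3, Xcr1, Cd209a and Zbtb46 at 0 in set 1. The list's part in the class II difference was not tested. Mmp13, a collagenase gene, was among the 10 lowest as well, but 87% of its UMIs in set 1 were in 1 cell.

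The counting intervals of the macrophage genes Adgre1 and Csf1r included 0. The log2 ratio of Adgre1 was 0.16 (-0.16 to 0.48) and that of Csf1r -0.09 (-0.35 to 0.17). Of 19 identity genes 6 were higher in set 2 and 0 lower. Among them was Trem2, with single cells from 0 through a median of 0.936 to 11.8 UMIs per 10000 in set 1 and from 0 through 8.06 to 59.5 in set 2. Its log2 ratio was 2.56 (2.18 to 2.96), and in other leukocytes it was 2.47 with 10 CPM added.

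Part of the lysosome and lipid genes were higher in set 2. Of 20 lysosome genes 6 were higher and 0 lower, with a median of 0.82, and of 0.35 among MHC-II-high members alone. Ctsd, the aspartic protease of the lysosome, stood at 652 CPM in set 1 (561 to 752) and 6182 CPM in set 2 (6051 to 6315), a log2 ratio of 3.25 (3.04 to 3.46), against 0.78 in other leukocytes with 10 CPM added. Single members held from 0 through a median of 3.28 to 38.4 Ctsd UMIs per 10000 in set 1 and from 0 through 23.5 to 358 in set 2. In MHC-II-high members alone Ctsd stood at 652 and 1188 CPM. Of 18 lipid genes 6 were higher, among them Spp1, the secreted phosphoprotein osteopontin, at 28.2 and 676 CPM. The median of the lipid list was 0.65, and 0.48 among MHC-II-high members alone. Spp1 was found in 3 of 27 and 66 of 169 members, and 1 cell held 290 of its 924 UMIs in set 2.

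Igf1, the growth factor, was sparse in set 1 and frequent in set 2. It stood at 7.04 CPM in set 1 (0.853 to 25.4, 2 of 27 cells) and 177 CPM in set 2 (156 to 201, 75 of 169 cells), a log2 ratio of 4.65 (2.78 to 7.71). In other leukocytes Igf1 stood at 18.5 and 58.9 CPM, in fibroblasts at 408 and 294, and in epithelium at 2.47 and 1.23. Of 15 growth factor and secreted regulator genes 6 were higher (Igf1, Igfbp4, Pdgfb, Areg, Grn and Sparc) and Il6 was lower. Gas6, a bridge between dying cells and their receptors, stood at 7.04 and 102 CPM, while in other leukocytes it stood at 26.4 and 7.85.

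A list of genes known from microglia, the macrophages of the brain, was added after the values were seen, because several of them stood high in the comparison. Of 8 used, 7 were higher in set 2, with a median of 2.41, and of 1.05 among MHC-II-high members alone. Fcrls stood at 28.2 and 295 CPM, Olfml3 at 14.1 and 217, and Tmem119 at 7.04 and 75.4, with UMIs in 2 of 27 and 45 of 169 members. P2ry12 and Gpr34, which define microglia, were sparse, at 0 and 15.4 CPM and at 7.04 and 8.78 CPM. Gatm, which makes the creatine precursor, stood at 31.7 and 592 CPM (4.22, 3.29 to 5.36). Of 17 immediate early and heat shock genes 8 were higher in set 2 (Fos, Fosb, Jun, Jund, Egr1, Ier2, Nr4a1 and Klf2), a group that dissociation can induce, and its part was not tested. Fos stood at 91.6 and 272 CPM, and in other leukocytes at 236 and 251.

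**Figure D4:**
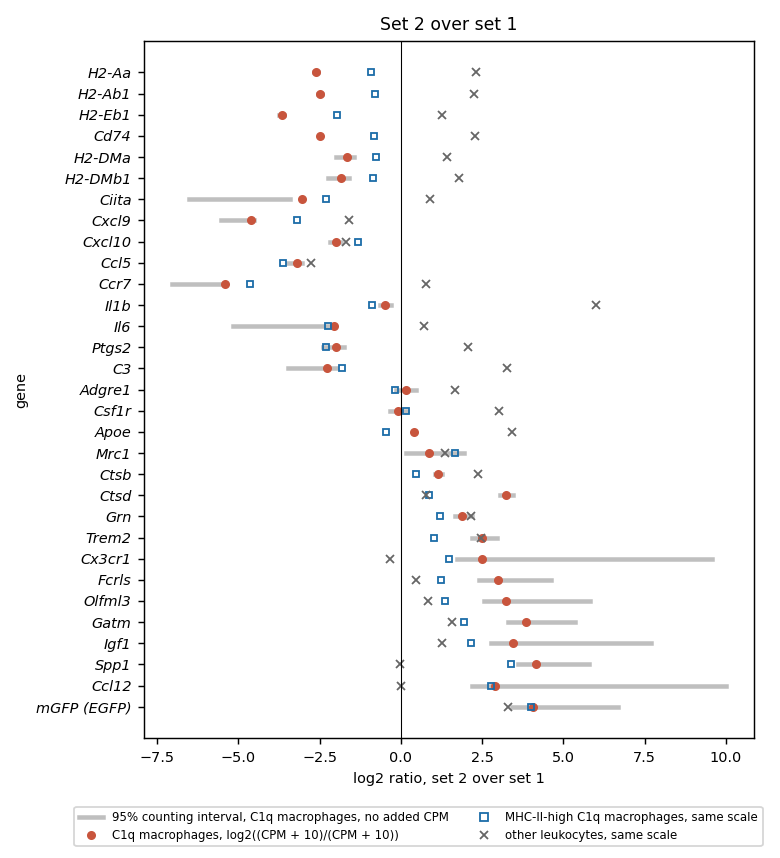
Log2 ratio of set 2 over set 1 for 31 genes, with dots for C1q macrophages, squares for the MHC-II-high members and crosses for other leukocytes (all with 10 CPM added), and a grey bar for the 95% counting interval of C1q macrophages with none added. Class II genes lie left of 0 in C1q macrophages and right of 0 in other leukocytes, Adgre1 and Csf1r lie near 0 in C1q macrophages, and mGFP lies right of 0 in all groups. The squares of H2-Aa, H2-Ab1 and H2-Eb1 follow in part from how those members were selected.

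Some of the genes highest in set 2 came from 1 cell. Mgp, a matrix protein gene of fibroblasts, and Igfbp7 led the comparison, but 1 member held 358 of 456 Mgp UMIs and 287 of 346 Igfbp7 UMIs. This cell had 21250 UMIs in all, 89 of C1qa, 33 of Tyrobp and a Scrublet score of 0.360, and fibroblast markers made up 257 of its UMIs per 10000 where the next member had 67.1. It held the most UMIs of Bgn, Col1a2, Sparc and Timp3 as well. Without it, 2 of 3 fibroblast markers used were still more than 2-fold higher in set 2, where 4 of 5 had been with it. The counts over all genes were 377 higher and 302 lower without it.

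The spread of class II RNA within set 2 was described by a split that was added after the values were seen. A member was MHC-II-high when at least 2 of H2-Aa, H2-Ab1 and H2-Eb1 had a deposited value of 3 or more, which held for 27 of 27 members of set 1 (100%, 87.2 to 100%) and 64 of 169 of set 2 (37.9%, 30.5 to 45.6%). The second-highest class II value had a median of 5.39 in set 1, with a range of 3.85 to 5.85. In set 2 the median was 1.44 and the range 0 to 5.44, with 57 members at 0 and 15 within 0.5 of the level. It is a division of a range, not of types. The median member of set 2 had 4893 UMIs on the high side and 9091 on the low side, with median mitochondrial shares of 3.87% and 4.83%. Of 18 immediate early and heat shock genes, Jun, Jund, Nr4a1 and Klf2 were more than 2-fold lower on the high side. The part of depth, RNA quality and dissociation in the split was not tested.

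In set 2, 98 of 4691 genes (2.09%) were more than 2-fold higher in the MHC-II-high members and 159 (3.39%) lower, around a median of -0.03. Cd74, which the split did not use, stood at 28721 CPM in the high and 1417 CPM in the low members. H2-DMa (381 and 125 CPM), H2-DMb1 and the costimulatory gene Cd86 were also higher, so that 4 of 5 genes used of the class II presentation list were. Mgl2, a lectin gene of antigen-presenting macrophages and dendritic cells, stood at 184 and 7.18 CPM, with UMIs in 24 of 64 and 3 of 105 cells. Pf4 (749 and 218 CPM) and Mrc1 (169 and 60.5 CPM) were higher. Cd207, the gene of langerin, stood at 204 and 3.08 CPM, but only 5 high cells had a UMI and 1 of them held 60% of these. Gm5150, Mmp19, St8sia4, Gpr183, Il1r2 and Clec4a1 completed the genes highest on this side, with Cxcl9, whose UMIs were nearly all in 1 cell.

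Ctsd was among the 2 of 20 lysosome genes, and Apoe and Trem2 were the 2 of 18 lipid genes, that were more than 2-fold higher in the MHC-II-low members of set 2. The lipid genes Cd36 and Pltp were higher in the MHC-II-high members. Ctsd stood at 1188 CPM in the high and 8185 CPM in the low members, a log2 ratio of -2.78 (-2.92 to -2.65). Its single-cell values ran from 0 through a median of 6.94 to 34.3 UMIs per 10000 in the high and from 2.12 through 50.3 to 358 in the low members. Every low member carried it, and the ranges overlapped below 34.3. Apoe stood at 22730 and 47692 CPM and Trem2 at 429 and 1540. Igf1 stood at 66.5 and 221 CPM, in 11 of 64 and 64 of 105 cells. Fcrls (79.2 and 381 CPM), Gatm (151 and 769 CPM) and Syngr1 (40.9 and 363 CPM) were lower in the high members too, and 6 of 8 microglia-associated genes were. Il12b, a subunit of interleukin 12, had 0 UMIs in the high and 196 CPM in the low members, where 9 cells held its 191 UMIs and 1 of them 78.

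Other macrophage genes did not separate the groups by 2-fold. The log2 ratio of high over low members, without added CPM, was -0.45 for Adgre1, 0.38 for Csf1r, -0.55 for Lyz2 and 0.22 for Cd14. C1qa, C1qb and C1qc, which set the members, stood at 5265, 5548 and 2814 CPM in the high and 8304, 8093 and 4531 CPM in the low members. Of fibroblast markers, 4 of 5 were lower in the high members (summed 146 and 917 CPM), and without the single cell described above 2 of 3 were.

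**Figure D5:**
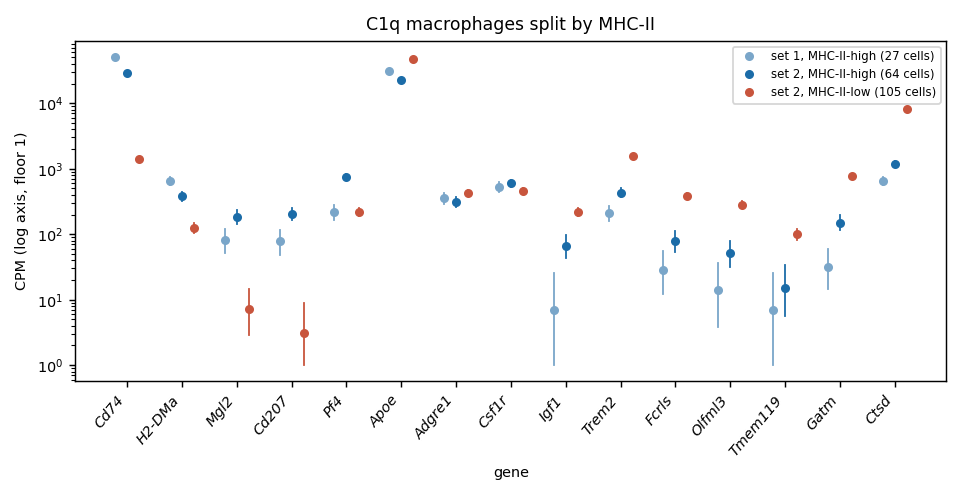
Level (CPM, log axis, points below 1 drawn at 1) of 15 genes in the MHC-II-high members of set 1 (27 cells) and set 2 (64 cells) and the MHC-II-low members of set 2 (105 cells), with 95% Poisson intervals as bars. Cd74, H2-DMa, Mgl2, Cd207 and Pf4 lie lower in the MHC-II-low members than in the MHC-II-high members of set 2, Igf1, Trem2, Fcrls, Gatm and Ctsd lie higher, and Adgre1 and Csf1r lie close together.

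The reporter was higher in set 2 in C1q macrophages and in the other groups given here. The feature EGFP, taken as mGFP from its name, stood at 14.1 CPM in the members of set 1 (3.84 to 36.1) and 390 CPM in set 2 (358 to 425), a log2 ratio of 4.79. EGFP was found in 4 of 27 and 141 of 169 members, with single cells from 0 through 0 to 1.78 UMIs per 10000 in set 1 and from 0 through 2.92 to 55.9 in set 2. EGFP also stood at 49.1 and 555 CPM in T cells, 23.3 and 433 CPM in fibroblasts, 53.0 and 327 CPM in endothelium, and 1223 and 9827 CPM in epithelium. The level of EGFP in the members thus lay under that of T cells of the same set, and no reading as expression in C1q macrophages is made. Osr1 had 0 UMIs in the members of both sets. Rpl29, a ribosomal protein gene, was higher in set 2 in the members (31.7 and 391 CPM), in other leukocytes (52.5 and 707 CPM) and in epithelium (48.1 and 1033 CPM).

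Shares of cells with a UMI depend on depth, so each cell was also thinned at random to 2000 UMIs, which kept every member. The median depth was 3647.5 and 2595 UMIs in T cells and 21949 and 16993.5 in epithelium, which are given for comparison. Epithelium held RNA of Apoe, H2-Ab1 and EGFP, so for these genes it is not a group without the gene. C1qa was seen in 96.3% of thinned members of set 1 and 99.4% of set 2, against 0.143% and 0.626% of epithelial cells. Ms4a7 was seen in 59.3% (38.8 to 77.6%) and 85.8% (79.6 to 90.7%), and in 81.5% and 97.6% without thinning. Trem2 was seen in 33.3% (16.5 to 54.0%) and 69.2% (61.7 to 76.1%) after thinning and in 55.6% and 85.8% before. In T cells, of which set 2 held only 17 before thinning, Trem2 was seen in 0%, and in epithelium in 0.0611% and 0.175%. The part of free RNA in the members' shares was not tested.

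Igf1 was seen in 3.70% (0.0937 to 19.0%) of thinned members of set 1 and 24.9% (18.5 to 32.1%) of set 2, and in 7.41% and 44.4% without thinning. In T cells of set 1 Igf1 was seen in 1.13%, in those of set 2 in 0 of 16, and in epithelium in 0.428% and 0.263%. The Igf1 share of set 1 rests on 1 cell. H2-Ab1 was seen in 100% (87.2 to 100%) and 58.6% (50.8 to 66.1%) of thinned members, and in 33.7% and 0.663% of epithelial cells, and whether this was expression by the epithelium or free RNA was not tested. Apoe was seen in 96.3% and 98.2% of thinned members and in 46.7% and 57.0% of epithelial cells. EGFP was seen in 3.70% and 45% of thinned members, below the 7.33% and 75% of T cells, and in 14.8% and 83.4% of members without thinning.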

How the data were processed

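Droplet-based 3′ libraries (10x Chromium, v2 chemistry) of 1 PIN and 1 PCa sample were analysed. The authors aligned and counted with Cell Ranger 3.1.0 against mm10 with the hARtg and mGFP sequences added, and dropped empty droplets, likely multiplets and cells with much mitochondrial RNA. The deposited values are natural log values, ln(1 + 10000 × UMIs of the gene / UMIs of the cell), for 19320 features. The UMIs were recovered by division, and 100% of 56988269 values were whole within a relative tolerance of 0.001. Members, other cell groups and gene lists were chosen with earlier results of these data known. No doublets were removed beyond the authors' own step, and Scrublet scores (scanpy 1.11.5, expected rate 6%) served as an alternative.

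UMIs were summed per group and barcode set (python 3.11.15, numpy 2.4.6, scipy 1.17.1). The members held 283959 UMIs in set 1 and 1366696 in set 2, so 3 UMIs, the floor used for a count of 0, correspond to 10.6 and 2.20 CPM. CPM carry exact Poisson, shares exact Clopper-Pearson and ratios conditional binomial 95% intervals. A gene was used at a mean of at least 20 CPM over the groups compared, and called beyond 2-fold with 10 CPM added. Genes that set a group were left out of its counts. Named genes were those of the lists that were used, and per comparison the 10 highest and 5 lowest (10 lowest between sets and in the split), without Xist and Y-linked genes. The script was checked on simulated counts with known folds. Promoters came from RefSeq (GRCm38.p6). The list genes Marco, Vsig4, Clec7a, Ifi207, Retnlg, Trac, Trbc1, Trbc2, Ighm, Igkc, Ms4a2 and Mcpt8 were not analysed here. A comparison with C1q-low MHC-II myeloid cells (20 and 14 cells) and a split by Timd4, Lyve1 and Folr2 (2 and 12 thinned members with a UMI, the count the plan used, and 4 and 30 before thinning) had been planned for groups of at least 30 cells and were not made. Alternatives changed the C1q level, the genes required, the depth, the scaling, the filter, the added CPM and the class II level.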

Additional observations from a re-analysis of the deposited data

Results flagged for a closer look

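For 11 named genes the C1q macrophages lay on opposite sides of the other leukocytes in the 2 barcode sets, beyond 2-fold in each. The difference between the sets was not tested, since each set is 1 library, and over all genes 52 of 5490 did so. The values are log2((CPM + 10)/(CPM + 10)) of C1q macrophages over other leukocytes, set 1 first. The class II genes were higher in set 1 and lower in set 2, with 3.63 and -1.09 for H2-Ab1, 3.70 and -1.23 for H2-Aa, 3.85 and -1.07 for H2-Eb1, and 3.73 and -1.02 for Cd74. When genes over 1% of the UMIs were left out of the scaling, Cd74 gave -0.95 in set 2. The dendritic cell gene Ccr7 gave 1.42 and -4.76. The interleukins gave 5.30 and -1.18 for Il1b and 1.54 and -1.22 for Il6, the complement component C3 3.27 and -2.28, the interleukin 7 receptor gene Il7r 1.01 and -1.58, and fibronectin, Fn1, 1.08 and -3.01. Gas6 went the other way, with -1.09 in set 1 and 2.65 in set 2. The other leukocytes were 687 and 47 cells, of which T cells were 78.6% and 36.2%, and the part of this make-up in the values was not tested.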

How the results depend on the processing

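No paired analysis was possible because neither tissue had more than 1 library. In all, 1598 values were recomputed under the alternatives. Of the values for single genes 1348 kept their sign, of which 172 moved beyond their counting error, and 2 reversed, both in the split by class II. Mgp gave 2.60 at a class II level of 2, and Cxcl9 gave -2.23 at a level of 4, genes whose UMIs were mostly in 1 cell. When Ptprc was required, C1q macrophages were 1.29% of set 2 and 72.0% of its leukocytes. With 1 CPM added, 453 genes were lower in set 2, and the split gave 168 higher and 291 lower. With 50 CPM added, 131 genes were higher and 146 lower against other leukocytes, 125 and 98 between sets, and 21 and 37 in the split. A filter at 5 CPM gave 777 genes higher in set 2 and 161 and 380 in the split. A filter at 50 CPM gave 243 lower against other leukocytes, 209 and 171 between sets, and 51 and 84 in the split. Scaling without genes over 1% of the UMIs gave 148 higher in the split and moved the median of all genes from -0.48 to -0.23 against other leukocytes in set 1. Among MHC-II-high members, a selection made on H2-Aa, H2-Ab1 and H2-Eb1, 3 genes of the class II list with these included were lower in set 2, and a class II level of 2 gave 84 lower in the split. Thinned to 3000 UMIs, Igf1 was seen in 0% of set 1 and Trem2 in 78.1% of set 2. Another filter or added CPM changes which genes are used and how many pass, and the cause of the other shifts was not tested. The class II levels, the MHC-II-high members, an Epcam limit of 1 UMI and the single cells left out were chosen after seeing the data. The alternatives of the 2 comparisons that could not be formed were not run. The 27 members of set 1 limit its values, where 1 UMI is worth over 3 CPM.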
